A study of Mus musculus with 9 samples.

Results

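Cytochrome P450 families 1 to 4 are haem enzymes of the endoplasmic reticulum that insert oxygen into drugs, pollutants, fatty acids and steroids. Families 1 to 3 handle mostly foreign compounds and arachidonic acid, while family 4 hydroxylates the far end of fatty acids and leukotrienes. Most of the best studied members belong to the liver and the gut, where nuclear receptors induce them, and a smaller set is transcribed in brain, where it oxidises arachidonic acid and other lipid messengers. Members were taken by symbol: protein-coding mouse genes named Cyp, 1 digit from 1 to 4, a letter and a number. The rule found 66 genes among the 37816 genes of the count table, of which 3 belonged to family 1, 41 to family 2, 6 to family 3 and 16 to family 4. GENCODE vM21 holds 75 genes that fit the rule, and the 9 others (Cyp2c50, Cyp2c54, Cyp2j5, Cyp2j7, Cyp2j11, Cyp2j13, Cyp2w1, Cyp3a44 and Cyp4a29) were not analysed here.

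RNA-seq was carried out on cerebellar tissue of C57BL/6 mice harvested at 18 months of age, with 3 libraries in each of 3 groups. The 15Q mice carried a yeast artificial chromosome (YAC) transgene with human ATXN3 holding 15 CAG repeats and served as controls. The 84Q mice carried the transgene with 84 CAG repeats, a model of spinocerebellar ataxia type 3 (SCA3), and the 84Q+IGF-1 mice were 84Q mice given insulin-like growth factor 1 at 50 mg/kg intraperitoneally each week from 9 to 18 months. The 15Q and 84Q groups are labelled untreated, while the treatment protocol names PBS for mice without IGF-1. All 9 libraries therefore came from mice that carried the human transgene, none from a mouse without it, and the 15Q and 84Q lines came from different sources, so line of origin and repeat length cannot be told apart. The human transgene is not one of the mouse genes counted, so the labels could not be checked by it. Libraries of a group are numbered as replicates, and each title also carries a bracketed code, different for every library, that the labels do not explain. Some codes begin alike in 84Q and 84Q+IGF-1. The study describes its RNA-seq data as taken per mouse, so p-values measure the spread between mice of a group.

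Total counts ranged from 26925001 to 58269196 in 15Q and from 17482654 to 29089855 in the 6 other libraries. Markers of cerebellar neurons summed to between 5364 and 6469 CPM, the unit of counts per library total, in every library, and 0 of the 8 were called in any comparison. Markers of intestine and liver did differ between groups and are given beside the P450 results that they move with. Choroid plexus markers summed to 511 and 499 CPM in 15Q replicates 1 and 3, to 1053 CPM in 84Q replicate 2 and to at most 69.0 CPM in the 6 other libraries.

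For description the members were placed on lists by the tissue in which they are best known. The brain or broadly expressed list holds 13 members, the intestine list 13 and the liver list 29, and 11 members were on no list. A filter on low counts, which required about 0.371 CPM in at least 3 libraries, kept 27 members for testing: 12 of the brain list, 10 of the intestine list, 3 of the liver list and 2 unlisted ones. Of these 27 members, 9 reached that level in fewer than 3 libraries outside 15Q and passed only because they were high in 15Q. Those 9 had to differ between groups to be tested at all, so no count or median over the tested members of the intestine and liver lists is read as support. Calls required a fold change of 1.5 or more and an adjusted p below 0.1 in the quasi-likelihood test of edgeR (Benjamini-Hochberg over 19353 genes).

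Promoter stretches are shown for members on which the results turn, so that the intestinal genes can be set beside those measured in all 9 libraries. Each run is the 100 bases before the RefSeq gene start on the gene's own strand (GRCm38.p6), with TATAAA in capitals where it occurs, which in these runs is Cyp2c55 alone, and only stretches free of annotated exons were used. The first 4 genes were read almost only in 15Q, whereas Cyp4f14, Cyp2j12 and Cyp1b1 were read in every library.
Cyp2c55, chr19:39006919-39007018, plus strand: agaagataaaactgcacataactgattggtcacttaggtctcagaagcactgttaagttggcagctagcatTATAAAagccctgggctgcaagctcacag
Cyp2c65, chr19:39060906-39061005, plus strand: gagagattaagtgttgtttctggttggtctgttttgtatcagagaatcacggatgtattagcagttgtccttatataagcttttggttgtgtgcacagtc
Cyp2c66, chr19:39113798-39113897, plus strand: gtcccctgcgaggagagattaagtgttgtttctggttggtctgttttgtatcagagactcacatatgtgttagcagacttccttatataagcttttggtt
Cyp3a25, chr5:146009619-146009718, minus strand: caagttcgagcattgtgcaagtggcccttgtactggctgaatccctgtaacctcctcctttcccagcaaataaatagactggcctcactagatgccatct
Cyp4f14, chr17:32917357-32917456, minus strand: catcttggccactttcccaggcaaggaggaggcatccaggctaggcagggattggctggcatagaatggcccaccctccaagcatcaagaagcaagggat
Cyp2j12, chr4:96141153-96141252, minus strand: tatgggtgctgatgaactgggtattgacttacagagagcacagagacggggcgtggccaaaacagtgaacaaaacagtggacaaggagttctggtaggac
Cyp1b1, chr17:79715062-79715161, minus strand: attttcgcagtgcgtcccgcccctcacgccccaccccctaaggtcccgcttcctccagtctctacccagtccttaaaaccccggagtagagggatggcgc

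RefSeq promoter windows were held for 55 of the 66 members, and 3 motifs are given, searched on both strands of the 250 bases before the start. TATAAA, the core of the TATA box, lay in the windows of 8 of the 10 members that were lower in both comparisons with 15Q, in 0 of the 8 tested brain-list members with a window and in 13.0% of all 27025 windows. On the gene's own strand in the last 50 bases before the start, it lay in 4 of the 10, in 0 of the 8 and in 2.88% of all windows. GCGTG, the core bound by the aryl hydrocarbon receptor, lay in 1 of those 10, in 5 of those 8 and in 28.2% of all windows. CAAAGTCCA, a form of the HNF4 site, lay in 2 of the 10, in 0 of the 8 and in 0.381% of all windows. Over all 36 windows of the intestine and liver lists, which include the 10, TATAAA lay in 22, GCGTG in 4 and CAAAGTCCA in 8. In 12 of the 36, TATAAA lay on the gene's own strand in the last 50 bases. The median GC content was 45.0% in the 10 windows, 54.2% in the 8 and 52.0% over all windows. The 250-base windows of the neighbours Cyp2c65 and Cyp2c66 shared an identical run of 48 bases.

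Levels between genes were compared per length, in TPM (read counts divided by exon length and scaled to a common total). Cyp2d22, the mouse gene closest in role to human CYP2D6, was the most abundant member at 74.9 ± 6.07 TPM (SD over the 9 libraries). Cyp2j9, an arachidonic acid oxidase of brain, followed at 59.0 ± 2.79 TPM, and Cyp4f14, a leukotriene and fatty acid hydroxylase known from liver and gut, came next at 22.2 ± 1.96 TPM. These 3 steps were each larger than the SDs of the neighbours in the order, so Cyp4f14 was among the leading members in this tissue despite its place on the intestine list. Cyp2j6 at 15.2 ± 1.67, Cyp4f13 at 15.1 ± 1.92, Cyp4f16 at 14.8 ± 1.52 and Cyp4v3 at 13.6 ± 0.763 TPM did not differ from one another beyond their spread. Cyp2u1, Cyp4f17 and Cyp4x1 lay at 11.7 ± 0.781, 10.4 ± 1.56 and 10.2 ± 0.998 TPM, again with overlapping spread.

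The brain list supplied 75.3% ± 2.30 of the summed TPM of all 66 members for 15Q, 85.4% ± 0.725 for 84Q and 85.4% ± 0.746 for 84Q+IGF-1 (SD, n = 3). The intestine list supplied 15.6% ± 1.67, 10.02% ± 0.422 and 10.3% ± 0.439 in the same order, and the liver list 4.86% ± 0.981, 0.694% ± 0.113 and 0.735% ± 0.119. The share of the digestive lists was thus highest in each of the 15Q libraries. The map of all members by library shows the same split between the upper block and the gut and liver blocks.

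**Figure D1:**
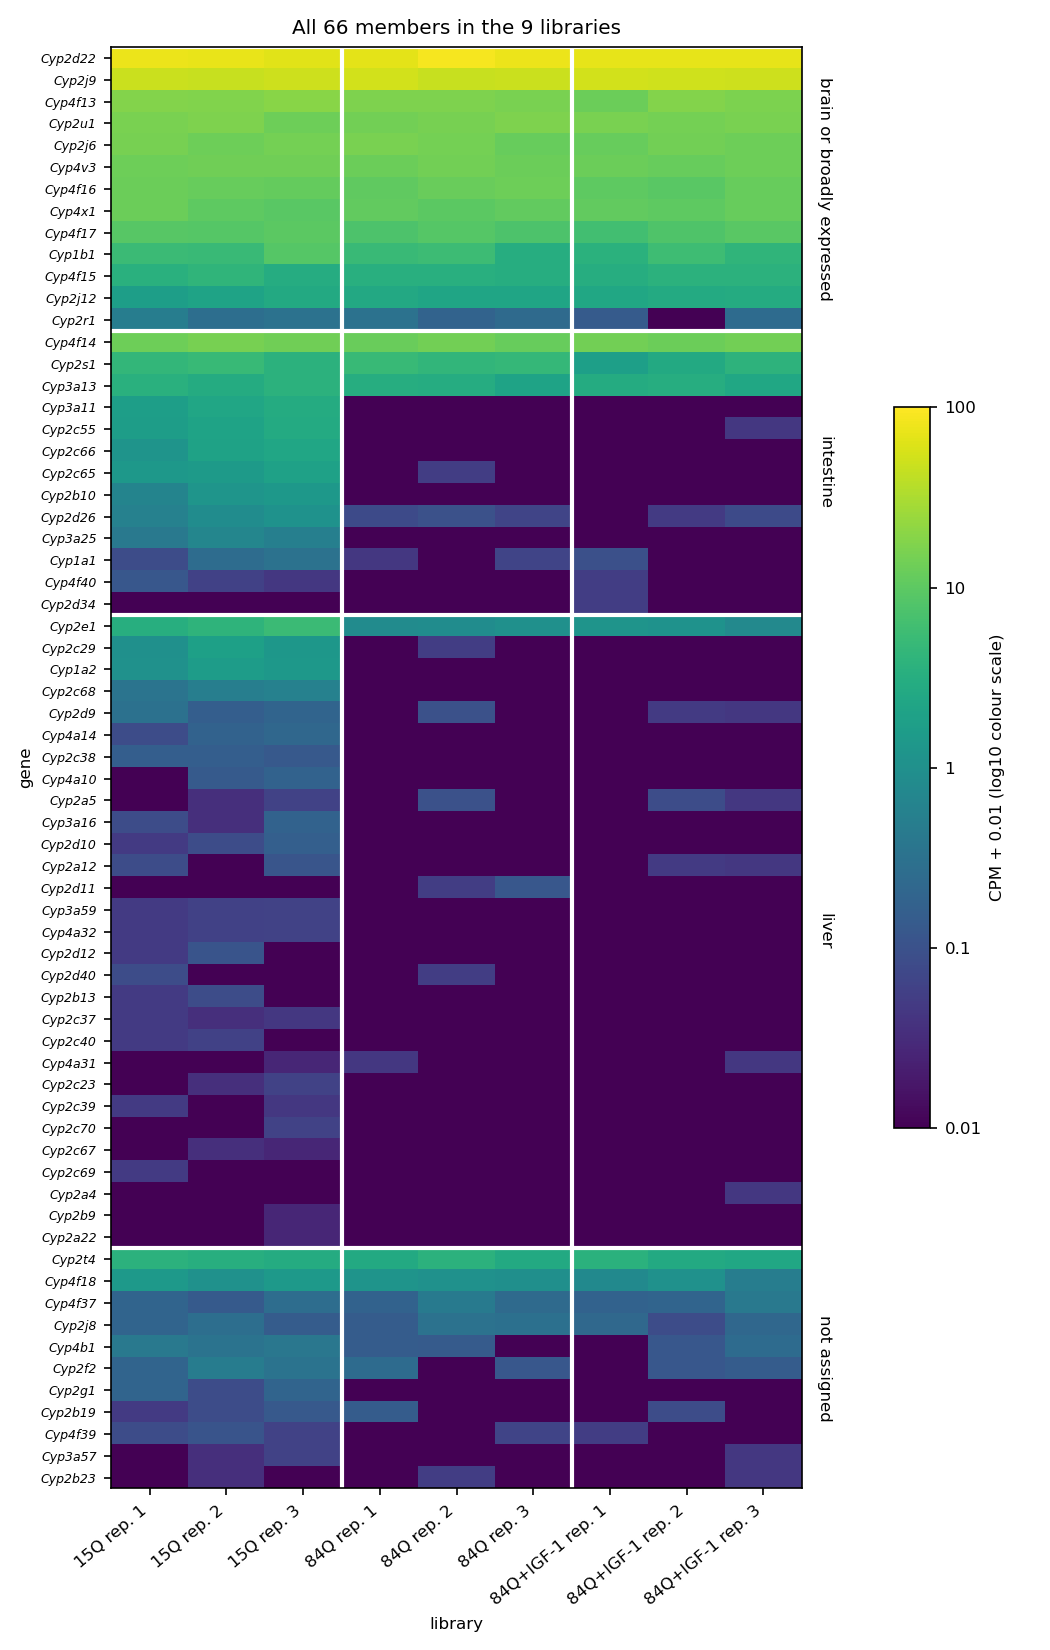
Level of all 66 members (vertical axis, ordered by list and mean level) in each of the 9 libraries (horizontal axis), coloured by CPM + 0.01 on a log10 scale. The brain list is filled in all 9 libraries, apart from Cyp2r1 in 84Q+IGF-1 replicate 2, while most genes of the intestine and liver lists are dark in the 6 non-15Q libraries.

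The comparison of 84Q with 15Q sets the line with the expanded repeat beside the control line in aged cerebellum. Of the 27 tested members, 10 were lower in 84Q, where 1.9% of all tested genes were, and 0 were higher, where 0.238% were. The DESeq2 Wald test called 11 members lower and 0 higher, beside 1.92% and 0.26% of the 23864 genes it tested. The 10 were Cyp2c55, Cyp2c65, Cyp2c66, Cyp2b10, Cyp2d26, Cyp3a11 and Cyp3a25 of the intestine list and Cyp1a2, Cyp2c29 and Cyp2e1 of the liver list. In 84Q+IGF-1 against 15Q, which shares the 15Q libraries, the same 10 members were lower, where 2.06% of tested genes were, and 0 were higher, where 0.186% were. DESeq2 gave 11 and 0 there, beside 2.28% and 0.189% of its genes. At an unadjusted p under 0.05, 10 and 12 members were lower in these comparisons and 0 higher, beside 10.4% of all tested genes lower in each and 9.04% and 7.36% higher. Without the filter on low counts edgeR called 16 and 19 members lower, beside 2.35% and 3.15% of all 37816 genes. Without 15Q replicate 2 or 3 the members called lower stayed at 10. The genes called lower fell from 368 to 176 and 170 for 84Q and from 399 to 231 and 205 for 84Q+IGF-1. Of these 10 members, 9 passed the filter only through 15Q, so their steady number is not read as support.

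Cyp3a11 (ENSMUSG00000056035.8, chromosome 5, 145854426 to 145879964, GRCm38) encodes the main drug-oxidising family 3 enzyme of mouse liver and gut and is induced by the pregnane X receptor. It had 46, 93 and 168 counts in the 15Q libraries and 0 in each of the 6 others. The groups did not overlap, and set against a floor of 3 counts over the group Cyp3a11 was lower by at least 56.4-fold for 84Q (adjusted p = 9.60e-04) and by at least 64.4-fold for 84Q+IGF-1 (adjusted p = 6.83e-04). Cyp3a25, its neighbour on the chromosome, had 11, 27 and 31 counts in 15Q and 0 in every other library. It was at least 12.7-fold and 14.5-fold lower (adjusted p = 0.0194 and 0.0131), and 6.79% of its 100-base windows also occur in other genes, here Cyp3a59. The third tested family 3 member, Cyp3a13, did not follow them: it read 3.45, 2.88 and 3.69 CPM for 15Q, 3.10, 2.99 and 2.11 for 84Q and 2.87, 3.05 and 2.36 for 84Q+IGF-1. Its groups overlapped, with log2 fold changes of -0.28 (SE 0.19, adjusted p = 0.450) and -0.28 (SE 0.19, adjusted p = 0.458).

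Cyp2c55 (ENSMUSG00000025002.5, chromosome 19, 39007019 to 39042693) encodes an arachidonic and linoleic acid oxidase best known from the colon, and opens the Cyp2c cluster of chromosome 19. It had 45, 85 and 162 counts in 15Q, 0 in each 84Q library, and 0, 0 and 1 in 84Q+IGF-1. It was at least 53.7-fold lower in 84Q (adjusted p = 3.05e-04) and lower by a pooled ratio of 184 in 84Q+IGF-1 (95% exact counting interval 32.7 to 7279, adjusted p = 2.45e-04). Its neighbour Cyp2c65 had 36, 60 and 112 counts in 15Q, with 0, 1 and 0 in 84Q and 0 in each 84Q+IGF-1 library. Cyp2c66 had 31, 81 and 138 counts and then 0 in all 6 others. These 2 intestinal epoxygenases share 7.82% and 7.35% of their 100-base windows, so a small part of their reads cannot be assigned to one or the other. Cyp2c65 was lower by a ratio of 115 (interval 20.4 to 4550, adjusted p = 6.41e-04) and by at least 43.6-fold (adjusted p = 3.16e-04). Cyp2c66 was lower by at least 45.9-fold and 52.4-fold (adjusted p = 0.00254 and 0.00180).

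Cyp2b10, the classical target of the constitutive androstane receptor, had 17, 48 and 78 counts in 15Q and 0 elsewhere. It was lower by at least 26.3-fold and 29.98-fold for 84Q and 84Q+IGF-1 (adjusted p = 0.00745 and 0.00492). Cyp2d26 had 15, 35 and 63 counts for 15Q, 2, 2 and 1 for 84Q and 0, 1 and 2 for 84Q+IGF-1. A few reads thus remained outside 15Q, without overlap, and the log2 fold change was -3.50 in 84Q (SE 0.52, adjusted p = 0.00517) and a pooled ratio of 23.7 in 84Q+IGF-1 (interval 7.90 to 117, adjusted p = 0.00168).

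Of the liver list, Cyp2e1 (ENSMUSG00000025479.9, chromosome 7, 140763739 to 140774987), the ethanol-oxidising P450, was the one with reads in all 9 libraries at testable level. It read 3.27, 3.99 and 5.35 CPM for 15Q, 0.827, 0.878 and 1.03 for 84Q and 1.16, 1.09 and 0.753 for 84Q+IGF-1. Every 15Q library was above all others, and the level fitted by edgeR was 4.69-fold lower in 84Q (log2 fold change -2.23, SE 0.24, adjusted p = 5.88e-04) and 4.26-fold lower in 84Q+IGF-1 (-2.09, SE 0.23, adjusted p = 6.49e-04). Cyp2e1 passed the filter without the help of 15Q. Cyp1a2, a liver enzyme that oxidises caffeine and aromatic amines, had 28, 64 and 80 counts in 15Q and 0 in the rest. It was at least 31.6-fold and 36.1-fold lower (adjusted p = 0.00224 and 0.00155). Cyp2c29, a hepatic epoxygenase, had 27, 74 and 77 counts in 15Q, with 0, 1 and 0 in 84Q and 0 in each 84Q+IGF-1 library. It was lower by a ratio of 98.1 (interval 17.4 to 3897, adjusted p = 0.00165) and by at least 37.3-fold (adjusted p = 7.72e-04). All counting intervals cover counting error only. The edgeR log2 fold changes of genes at or near 0 depend on the prior count and are no bounds. For 84Q they were -8.36 for Cyp1a2, -8.04 for Cyp2b10, -6.24 for Cyp2c29, -9.08 for Cyp2c55, -6.43 for Cyp2c65, -8.84 for Cyp2c66, -9.15 for Cyp3a11 and -7.06 for Cyp3a25. For 84Q+IGF-1 they were, in the same order, -8.36, -8.04, -8.42, -7.05, -8.61, -8.84, -9.15 and -7.06, with -4.36 for Cyp2d26.

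**Figure D2:**
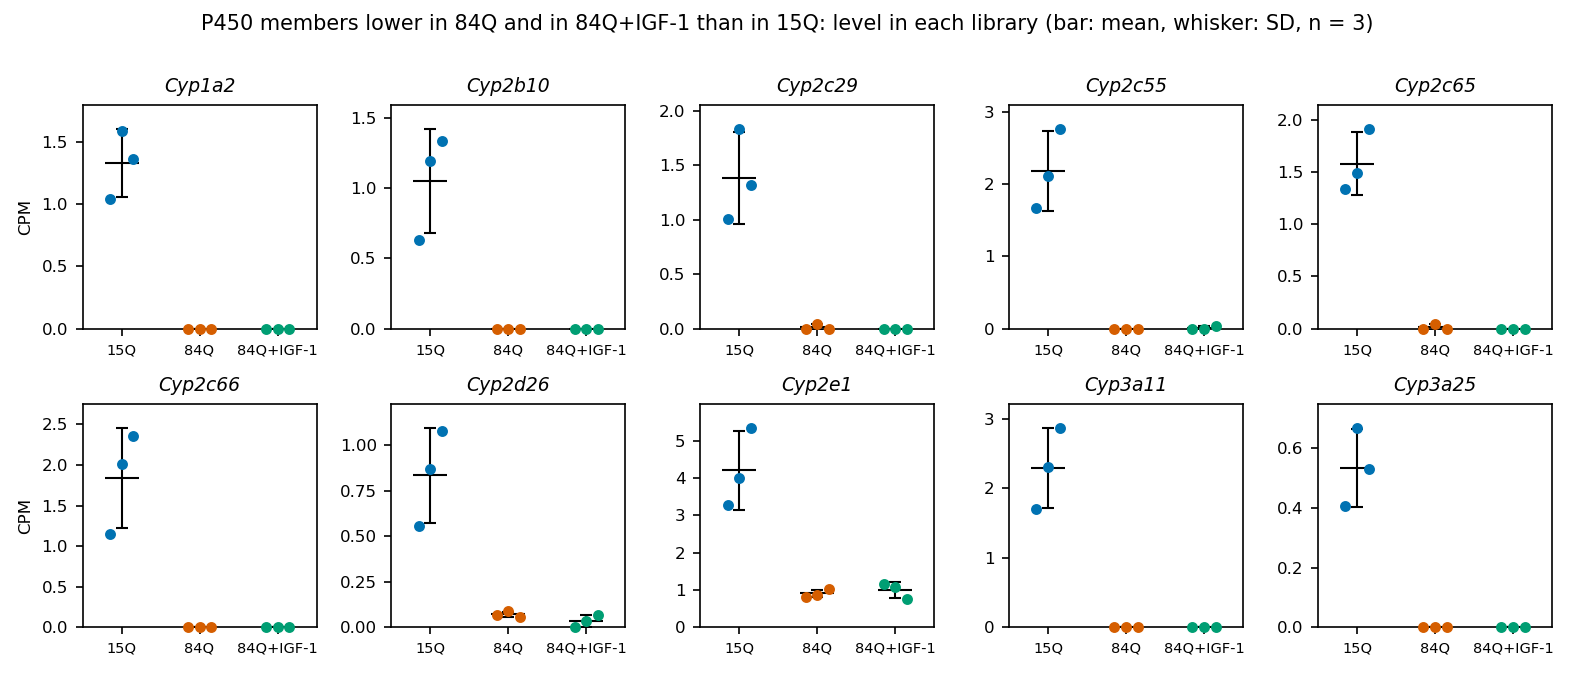
CPM (vertical axes, each from 0) of the 10 members lower in both comparisons, 1 point per library, with the mean and SD of each group of 3. In every panel the 3 points of 15Q lie above all 6 others; Cyp2e1 alone keeps near 1 CPM outside 15Q.

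Within 15Q, replicate 1 had the lowest CPM of the 3 libraries for all 10 of these members, and replicate 3 the highest for 7 of them. Their summed level was 12.8, 18.1 and 20.9 CPM in the 15Q libraries, and between 0.856 and 1.16 CPM in the 6 others. Markers of intestine moved with it: the 15 markers summed to 31.5, 46.1 and 49.2 CPM for 15Q, to between 5.58 and 6.94 for 84Q and to between 5.24 and 6.66 for 84Q+IGF-1. Of the 9 intestine markers tested, 8 were lower in 84Q and 9 in 84Q+IGF-1, beside 1.9% and 2.06% of all tested genes. Several of the 9, Fabp1 and Sis among them, passed the filter only through 15Q, so this count is not read as support. Lgals4 and Vil1 were read in every library and made up most of the sum outside 15Q. In 15Q, 84Q and 84Q+IGF-1 Lgals4 stood at 6.37, 3.17 and 3.37 CPM and Vil1 at 3.81, 1.70 and 1.65. Fabp1, the enterocyte and hepatocyte fatty acid binding protein, had 151, 345 and 527 counts in 15Q, 0 in each 84Q library and 0, 1 and 0 in 84Q+IGF-1. Sis, the enterocyte sucrase, had 142, 285 and 446 counts in 15Q, 0 in each 84Q library and 4, 0 and 0 in 84Q+IGF-1. In 84Q 6 of the 15 markers were at 0 in all libraries, and in 84Q+IGF-1 4 were.

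Markers of liver also moved with the P450 sum, at 14.8 to 31.6 CPM over 15 genes for 15Q, 2.89 to 4.61 for 84Q and 1.96 to 2.83 for 84Q+IGF-1. The largest parts of the 15Q sum were Cps1 and Hpx. Cps1 stood at 10.9 ± 3.34, 1.75 ± 0.238 and 1.61 ± 0.487 CPM in 15Q, 84Q and 84Q+IGF-1, and Hpx at 4.51 ± 1.88, 0.445 ± 0.148 and 0.307 ± 0.0584. Lower in both comparisons were 5 of 6 tested markers, beside 1.9% and 2.06% of all tested genes. Fgb and Fgg, at 0 in all 6 non-15Q libraries, were tested only through 15Q, so counts of called markers are not read as support. Alb had 53, 162 and 270 counts for 15Q, 0, 1 and 19 for 84Q and 0, 6 and 0 for 84Q+IGF-1, while Mup3, a major urinary protein gene of liver, had 0, 0 and 1 count in 15Q. The liver markers did not all move one way: 4 of the 15, Apoa2, Serpina1a, Serpina1c and Serpina3k, had a higher mean CPM in 84Q than in 15Q, and 0 of these were called higher. Apoa2, the tested one that was not lower, had 11, 8 and 16 counts for 15Q, 14, 11 and 6 for 84Q and 4, 0 and 7 for 84Q+IGF-1. Epidermis markers, 10 genes, summed to 39.1 to 53.4 CPM for 15Q, 22.3 to 29.1 for 84Q and 25.8 to 28.7 for 84Q+IGF-1, and 4 and 5 of 9 were lower. Kidney markers, with Slc22a6 of kidney and meninges the 1 of 4 lower, summed to 12.9 to 19.0, 8.54 to 10.7 and 6.86 to 10.9 CPM. For lung the sums overlapped, at 0.803 to 1.08, 0.626 to 1.32 and 0.753 to 1.16 CPM over 4 genes. The part of these other tissues in the lower P450 levels was not tested, and in bulk tissue fewer cells of a type and less RNA per cell cannot be told apart.

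**Figure D3:**
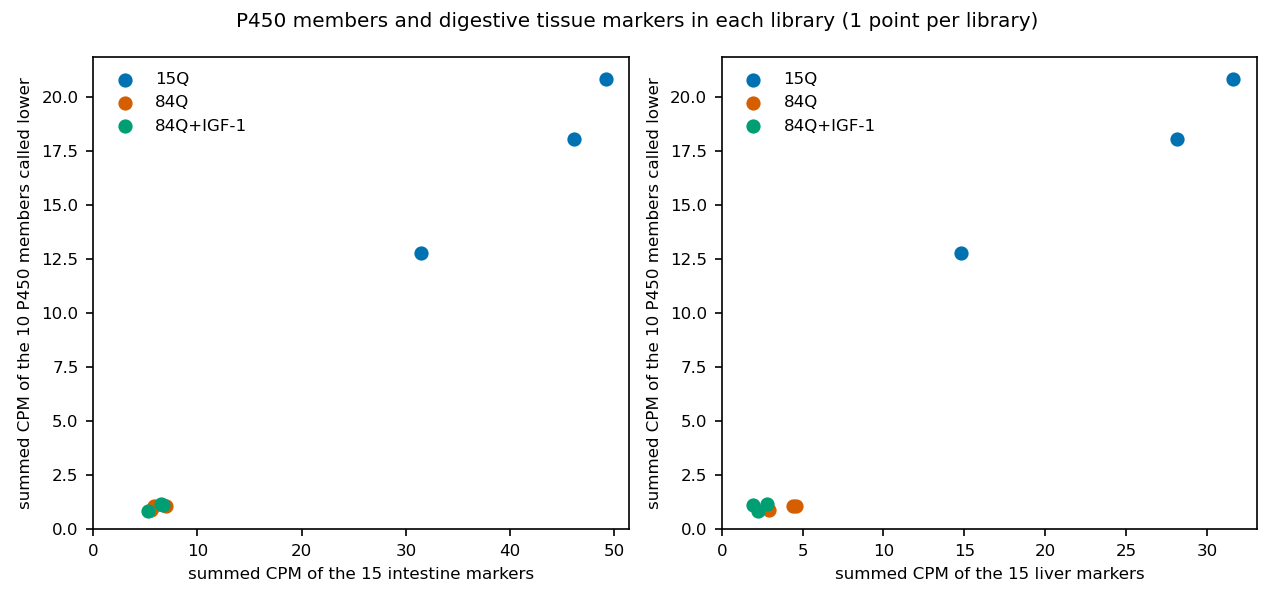
Summed CPM of the 10 members lower in both comparisons (vertical axes) against the summed CPM of 15 intestine markers (left) and 15 liver markers (right), 1 point per library, coloured by group. The 6 non-15Q libraries lie near the origin, and the P450 sum of the 15Q libraries runs from 12.8 to 20.9 CPM.

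Other members of the liver list were scarce even in 15Q. Among the 29, 17 had at most 3 counts in every library, including Cyp2c37, Cyp2c39, Cyp2c40, Cyp2c67, Cyp2c69 and Cyp2c70 of the Cyp2c cluster. The 8 measured genes known as female-predominant in liver summed to between 0.149 and 0.256 CPM in 15Q, and the 3 male-predominant ones to between 0.149 and 0.483 CPM. Of these, 2 in each set (Cyp3a41a and Cyp3a41b, Cyp4a12a and Cyp4a12b) lie outside the symbol rule and are not among the 66. Over all 66 members, 21 had every 15Q library above all 6 others: 12 of the liver list, 7 of the intestine list, 0 of the brain list and 2 unlisted. Of all 37816 genes 5.07% had that order. Every 15Q library was below the 6 others for 0 members and for 3.14% of all genes. Among the tested members 10 of 27 had 15Q above and 0 had it below, beside 6.34% and 5.96% of the tested genes. Altogether 25 members had no count in any of the 6 non-15Q libraries. Many of them were scarce in 15Q as well, such as Cyp2b9 and Cyp2a22, each with 0, 0 and 1 count there. The share of all genes at 0 in those 6 libraries was not computed, so the 25 is not read as a loss outside 15Q.

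More than 3 counts were found for 36, 40 and 43 members for 15Q, 24, 21 and 21 for 84Q, and 20, 19 and 23 for 84Q+IGF-1. Replicates 2 and 3 of 15Q were the deepest libraries, while replicate 1 lay within the range of the 6 others, so every library was thinned to 17482654 counts. The numbers were then 34, 33 and 33 for 15Q, 21, 20 and 21 for 84Q and 19, 19 and 22 for 84Q+IGF-1, with no overlap between 15Q and the rest. Detection over all genes was not counted in this way, so a general difference in the number of genes detected was not tested. The summed level of the 42 members on the intestine and liver lists was 40.9 ± 4.77 CPM for 15Q, 21.3 ± 1.37 for 84Q and 20.2 ± 0.834 for 84Q+IGF-1 (SD, n = 3). Much of that sum came from Cyp4f14, Cyp3a13 and Cyp2s1; without these 3, left out after their values were seen, it was 19.2 ± 4.50, 1.18 ± 0.188 and 1.21 ± 0.162 CPM.

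By position, the 12 members of the Cyp2c cluster on chromosome 19 (39007019 to 40187333) summed to 7.72 ± 1.74 CPM for 15Q, 0.0293 ± 0.0507 for 84Q and 0.0114 ± 0.0198 for 84Q+IGF-1. The 5 clustered family 3 members on chromosome 5 (145345279 to 146113287) summed to 2.99 ± 0.726, 0 and 0.0114 ± 0.0198 CPM. The Cyp4f cluster on chromosome 17 (32452723 to 32947402) held 8 members, none called, with sums of 57.1 ± 0.420, 52.8 ± 2.74 and 51.2 ± 4.46 CPM. The Cyp2j cluster on chromosome 4 (96099318 to 96591578) held 4 members at 64.0 ± 2.52, 66.05 ± 4.23 and 67.1 ± 0.859 CPM. In the Cyp2d cluster on chromosome 15 the brain-listed Cyp2d22 and the called Cyp2d26 lie at the ends of a run of 8 members.

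The brain or broadly expressed list was not among the called members. With edgeR, 0 of its 12 tested members were called in either comparison with 15Q, and 0 had an unadjusted p under 0.05, beside 19.4% of all tested genes in the first comparison and 17.7% in the second. DESeq2 also called 0 of the brain list in either comparison. The member that it added to the 10 of edgeR was Cyp2c68, which edgeR did not test (DESeq2 adjusted p = 0.00474 for 84Q and 0.00288 for 84Q+IGF-1). The median log2 fold change of the 12 was -0.0069 in 84Q and -0.052 in 84Q+IGF-1, beside -0.0019 and -0.0051 over all tested genes. Their summed level, with the untested Cyp2r1, was 224 ± 6.20 CPM for 15Q, 227 ± 9.64 for 84Q and 219 ± 4.96 for 84Q+IGF-1 (SD, n = 3).

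Cyp2d22 (ENSMUSG00000061740.8, chromosome 15, 82370527 to 82380260) read 76.2, 72.8 and 65.1 CPM for 15Q, 68.7, 88.3 and 75.9 for 84Q and 71.5, 71.4 and 70.9 for 84Q+IGF-1. Its groups overlapped, with log2 fold changes against 15Q of 0.12 (SE 0.0839, adjusted p = 0.462) in 84Q and -0.0017 (SE 0.0838, adjusted p = 0.993) in 84Q+IGF-1. The arachidonic acid epoxygenases of the Cyp2j cluster were likewise not called. Cyp2j9 (ENSMUSG00000015224.10, chromosome 4, 96568429 to 96591578) read 47.7, 45.8 and 49.0 CPM for 15Q, 52.3, 46.9 and 48.6 for 84Q and 52.4, 51.1 and 50.4 for 84Q+IGF-1. All 84Q+IGF-1 libraries of Cyp2j9 lay above the 15Q libraries by a small step, at 0.11 (SE 0.0593, adjusted p = 0.355), while 84Q overlapped 15Q at 0.054 (SE 0.0596, adjusted p = 0.664). Cyp2j6 read 15.04, 13.1 and 14.3 CPM for 15Q, 15.8, 14.7 and 11.96 for 84Q and 11.6, 14.1 and 13.1 for 84Q+IGF-1. Cyp2j12 read 1.71, 2.06 and 2.70 CPM for 15Q, 2.58, 2.24 and 2.22 for 84Q and 2.40, 2.82 and 2.84 for 84Q+IGF-1. In both genes the groups overlapped, with log2 fold changes of 0.0068 and -0.13 for Cyp2j6, and of 0.11 and 0.30 for Cyp2j12.

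Among the fatty acid hydroxylases, Cyp2u1 read 15.6, 16.8 and 13.3 CPM for 15Q, 14.2, 15.3 and 16.7 for 84Q and 15.9, 14.7 and 15.5 for 84Q+IGF-1. It showed log2 fold changes of 0.018 (SE 0.10, adjusted p = 0.947) and 0.018 (SE 0.10, adjusted p = 0.948), with overlapping groups. Cyp4x1, which oxidises the endocannabinoid anandamide, read 12.6, 10.2 and 9.46 CPM for 15Q, 10.8, 9.66 and 11.1 for 84Q and 11.01, 10.1 and 11.8 for 84Q+IGF-1. The Cyp4x1 groups overlapped as well, at -0.031 and 0.034. Cyp4v3, the counterpart of the human corneal and retinal dystrophy gene CYP4V2, read 13.3, 13.4 and 13.4 CPM for 15Q, 12.8, 13.96 and 12.8 for 84Q and 12.8, 11.5 and 12.9 for 84Q+IGF-1. The 84Q+IGF-1 libraries of Cyp4v3 all lay below those of 15Q, without passing the test, at -0.10 (SE 0.0866, adjusted p = 0.569), and 84Q stood at -0.021.

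The Cyp4f genes encode hydroxylases of leukotrienes and long fatty acids. Cyp4f13 read 18.3, 17.5 and 19.1 CPM for 15Q, 16.9, 16.99 and 15.7 for 84Q and 12.6, 18.1 and 15.95 for 84Q+IGF-1. All 84Q libraries of Cyp4f13 were below those of 15Q, at -0.15 (SE 0.12, adjusted p = 0.515), whereas 84Q+IGF-1 overlapped 15Q, at -0.24 (SE 0.11, adjusted p = 0.312). Cyp4f16 read 12.4, 11.6 and 11.2 CPM for 15Q, 10.4, 12.3 and 13.2 for 84Q and 10.3, 9.48 and 11.9 for 84Q+IGF-1. Cyp4f17 read 9.02, 8.73 and 9.74 CPM for 15Q, 7.69, 8.83 and 7.69 for 84Q and 6.09, 7.86 and 9.38 for 84Q+IGF-1. Both overlapped between groups, with log2 fold changes of 0.026 and -0.15 for Cyp4f16 and of -0.19 and -0.23 for Cyp4f17. Cyp4f15 read 3.42, 4.07 and 3.02 CPM for 15Q, 3.27, 3.29 and 3.13 for 84Q and 3.09, 3.69 and 3.77 for 84Q+IGF-1. It overlapped between groups, at -0.11 and 0.0096.

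Cyp1b1, which hydroxylates oestradiol, did not pass the test. It read 5.35, 5.08 and 8.85 CPM for 15Q, 5.10, 5.58 and 3.08 for 84Q and 3.60, 5.72 and 4.11 for 84Q+IGF-1. Replicate 3 of 15Q was highest and the groups overlapped, at -0.48 (SE 0.26, adjusted p = 0.339) in 84Q and -0.53 (SE 0.26, adjusted p = 0.319) in 84Q+IGF-1. Without that library the log2 fold changes were -0.17 and -0.21. The 9 meninges markers summed to 82.4 to 130 CPM for 15Q, 49.0 to 80.7 for 84Q and 42.9 to 62.3 for 84Q+IGF-1, with 2 and 3 of 9 lower, and their part in the Cyp1b1 values was not tested.

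**Figure D4:**
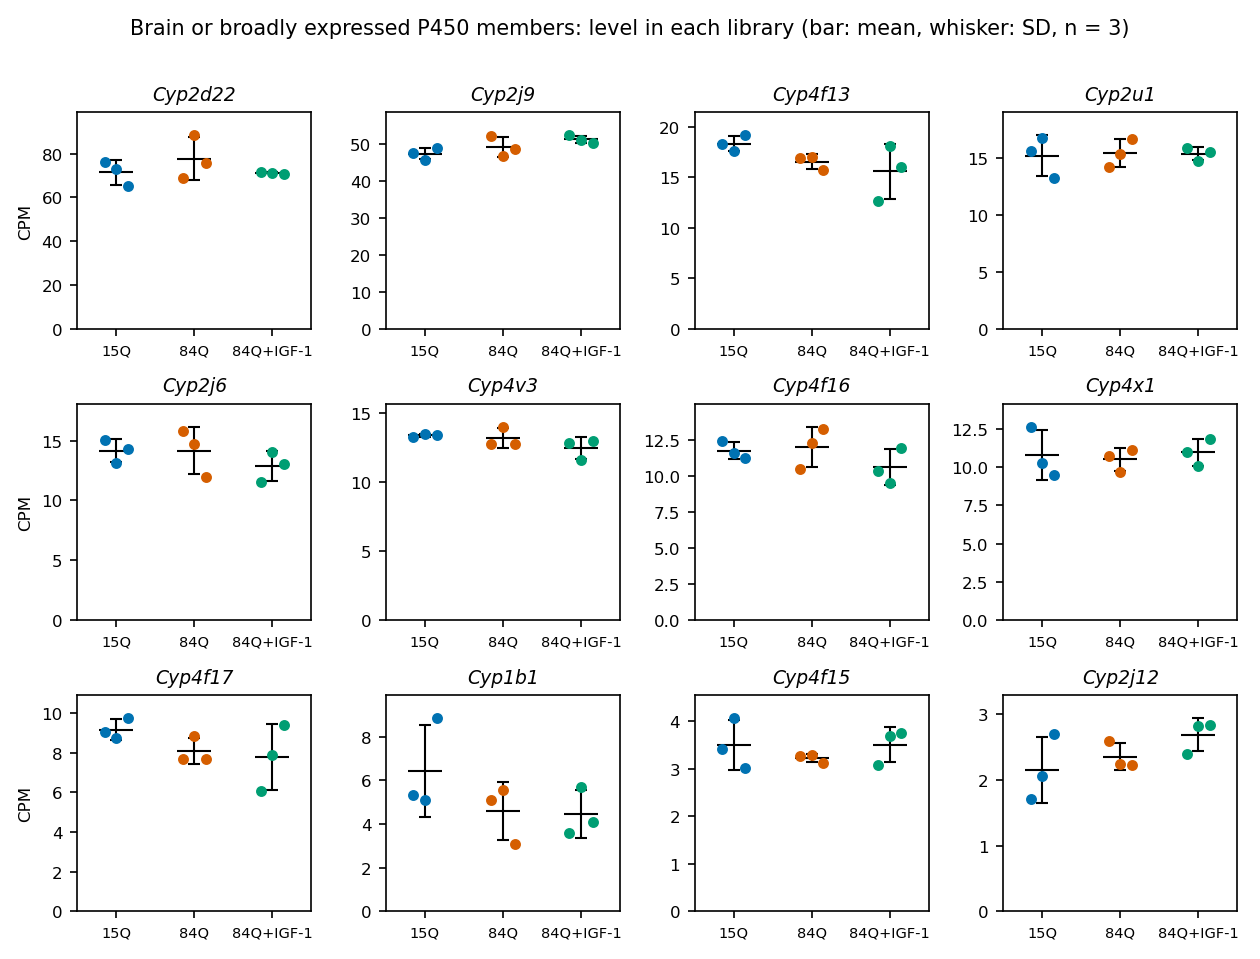
CPM (vertical axes, each from 0) of the 12 tested members of the brain or broadly expressed list, 1 point per library, with the mean and SD of each group of 3. The levels run from 1.71 CPM for Cyp2j12 to 88.3 CPM for Cyp2d22, and 0 of the 12 were called in any comparison.

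The tested members of the other lists that were not called were Cyp3a13, Cyp2s1, Cyp4f14, Cyp2t4 and Cyp4f18. Cyp4f14 (ENSMUSG00000024292.15, chromosome 17, 32905070 to 32917342) read 13.2, 15.4 and 13.6 CPM for 15Q, 12.2, 14.1 and 11.96 for 84Q and 14.1, 12.5 and 13.9 for 84Q+IGF-1. Its groups overlapped, at -0.14 (SE 0.10, adjusted p = 0.481) and -0.063 (SE 0.10, adjusted p = 0.785). Cyp2t4, of no list, read 3.75, 3.25 and 2.89 CPM for 15Q, 2.72, 3.73 and 2.68 for 84Q and 3.56, 2.71 and 2.40 for 84Q+IGF-1, with log2 fold changes of -0.10 and -0.19. Cyp4f18, a leukotriene hydroxylase of blood cells, read 1.45, 1.04 and 1.45 CPM for 15Q, 1.17, 1.05 and 0.968 for 84Q and 0.771, 1.05 and 0.479 for 84Q+IGF-1. The Cyp4f18 groups overlapped, with -0.29 (SE 0.28, adjusted p = 0.610) in 84Q and -0.78 (SE 0.29, adjusted p = 0.189) in 84Q+IGF-1.

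Between 84Q+IGF-1 and 84Q, which asks what IGF-1 changed in mice with the expanded repeat, edgeR called 0 of the 27 tested members and 0% of all tested genes. DESeq2 also called 0 members, and of 37794 genes it called 5 lower (0.0132%) and 1 higher (0.00265%). At an unadjusted p under 0.05 stood 1 of the 27 members, a share no larger than the 4.68% of all tested genes. That member was Cyp2s1 (ENSMUSG00000040703.11, chromosome 7, 25802475 to 25816913), an epithelial P450 of the intestine list, which read 4.42, 4.89 and 3.66 CPM for 15Q, 4.997, 4.22 and 4.56 for 84Q and 1.80, 2.71 and 3.87 for 84Q+IGF-1. Every 84Q+IGF-1 library of Cyp2s1 was below every 84Q library, while 84Q+IGF-1 and 15Q overlapped. Its log2 fold change was -0.71 (SE 0.23, adjusted p = 0.969) against 84Q, -0.61 (SE 0.23, adjusted p = 0.196) against 15Q, and 0.094 (SE 0.22, adjusted p = 0.858) between 84Q and 15Q. Without the filter on low counts Cyp2s1 was called in both comparisons of 84Q+IGF-1 (adjusted p = 0.0595 and 0.036, edgeR), a setting in which 154 of 37816 genes (0.407%) were lower and 14 (0.037%) higher between the 84Q groups, against 0 with the filter. Cyp2e1 differed by 0.14 (SE 0.28) between 84Q+IGF-1 and 84Q. The median log2 fold change of the 12 brain members was -0.048, beside -0.0033 over all tested genes.

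**Figure D5:**
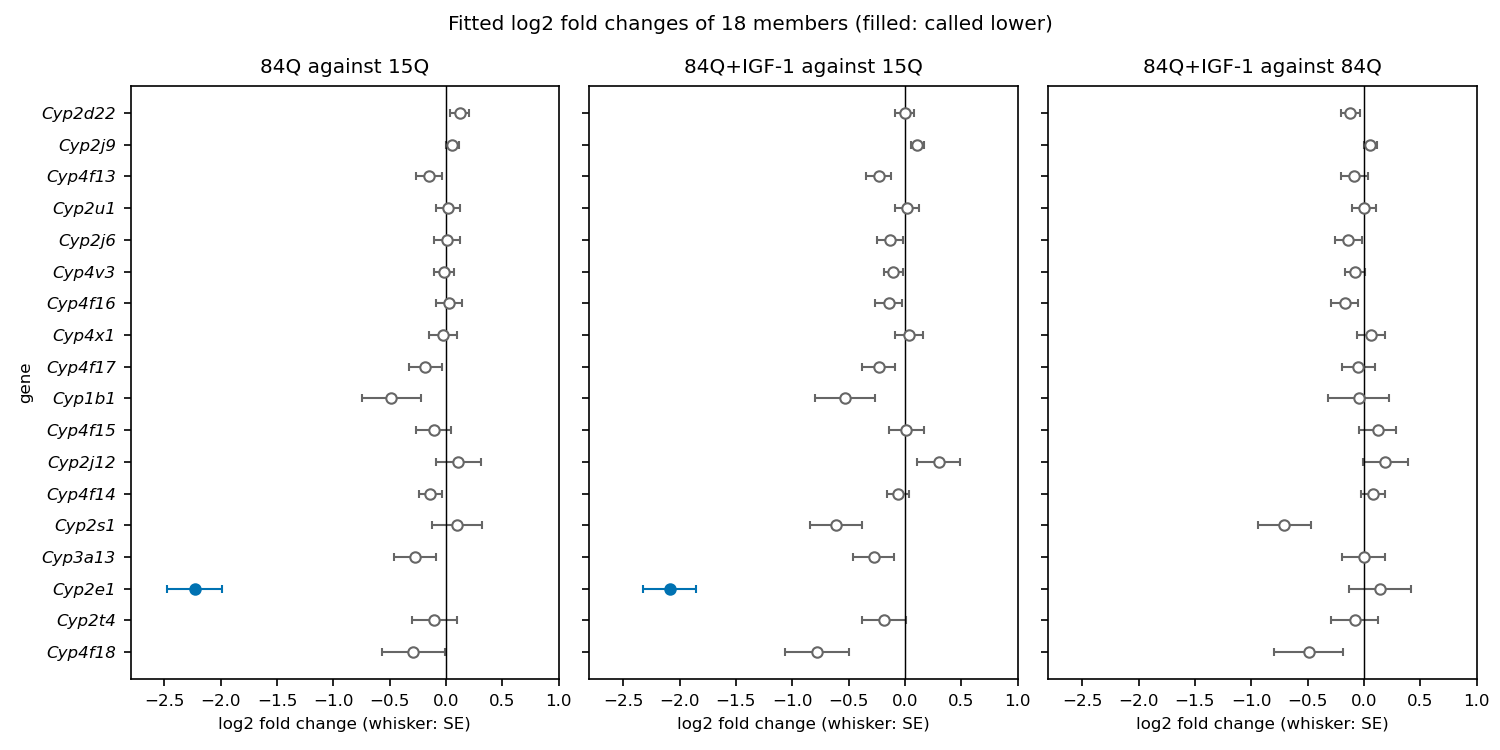
Log2 fold changes with standard errors (horizontal axes) of the 18 tested members whose groups had enough counts for a fitted fold in all 3 comparisons, 1 panel per comparison; filled points were called lower. Cyp2e1 lies near -2.23 and -2.09 against 15Q and near 0.14 between the 84Q groups, while the other 17 lie between -0.78 and 0.30.

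Of the 39 untested members, 12 reached 10 counts in at least 1 library. Cyp2c68, of the chromosome 19 cluster, had 9, 20 and 33 counts for 15Q, 0 in each library for 84Q and 0 in each library for 84Q+IGF-1, which is at least 11.4-fold and 13.0-fold lower. Other genes, chiefly Cyp2c40, share 19.8% of its 100-base windows. Cyp1a1, induced by the aryl hydrocarbon receptor, had 2, 10 and 18 counts for 15Q, 1, 0 and 1 for 84Q and 2, 0 and 0 for 84Q+IGF-1. Cyp2d9 had 8, 6 and 11 counts for 15Q, 0, 2 and 0 for 84Q and 0, 1 and 1 for 84Q+IGF-1. The pooled ratio of 15Q to 84Q was 8.27 for Cyp1a1 (interval 2.098 to 71.4) and 6.89 for Cyp2d9 (interval 1.72 to 60.0).

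Cyp4a10 and Cyp4a14, fatty acid hydroxylases induced by PPARα, had 0, 5 and 10 and 2, 7 and 12 counts in 15Q and 0 in all 6 others, as did Cyp3a16 with 2, 1 and 10 and Cyp2g1, of olfactory mucosa, with 5, 3 and 11. Other genes share 12.2% of the windows of Cyp4a10. Reads outside 15Q were found for the remaining 5. Cyp2r1, the vitamin D 25-hydroxylase, had 13, 11 and 18 counts for 15Q, 9, 4 and 4 for 84Q and 3, 0 and 7 for 84Q+IGF-1. Cyp4b1 had 11, 13 and 22 counts for 15Q, 4, 3 and 0 for 84Q and 0, 3 and 7 for 84Q+IGF-1. Cyp2f2, a lung P450, had 5, 19 and 19 counts for 15Q, 7, 0 and 2 for 84Q and 0, 3 and 4 for 84Q+IGF-1, so that 84Q replicate 1 overlapped 15Q. Cyp4f37 and Cyp2j8 overlapped between all groups, at 4 to 15 and 2 to 11 counts. The other 27 untested members had fewer than 10 counts in every library, and 21 of the 66 members had at most 3 in every library.

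The partners and regulators of P450 enzymes were set beside them. All 11 measured redox and binding partners of P450 enzymes were tested and 0 were called in any comparison; 2 of them were Cyb5b at 151 ± 1.55, 149 ± 1.06 and 146 ± 2.94 CPM in 15Q, 84Q and 84Q+IGF-1 and Pgrmc1 at 109 ± 6.11, 110 ± 2.40 and 111 ± 3.97. Among the tested P450-inducing receptors and transcription factors, Hnf4a and Hnf4g were lower in both comparisons with 15Q and 0 were higher. Both genes passed the filter only through 15Q, so their calls are not read as support. Hnf4a, a factor of liver and gut epithelium, had 44, 142 and 189 counts in 15Q, 0 in each 84Q library and 0, 0 and 1 in 84Q+IGF-1 (adjusted p = 4.33e-04 and 3.41e-04). Hnf4g had 11, 33 and 67 counts for 15Q, 1, 0 and 0 for 84Q and 0 in each 84Q+IGF-1 library (adjusted p = 0.0115 and 0.00488).

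Of 23 tested phase II and epoxide enzymes, which act on P450 products, 7 were lower in each comparison with 15Q and 0 were higher. Of all tested genes 1.9% and 2.06% were lower. Several of the 7, Ces2a and Ugt2b34 among them, passed the filter only through 15Q, so this count is not read as support. Ces2a, an intestinal carboxylesterase, had 37, 130 and 170 counts for 15Q, 1, 2 and 0 for 84Q and 0 in each 84Q+IGF-1 library (adjusted p = 0.00127 and 5.07e-04). Ugt2b34, a glucuronosyltransferase, had 44, 112 and 167 counts in 15Q and 0 in all others (adjusted p = 0.00115 and 7.97e-04). Ugt1a7c had 39, 96 and 176 counts for 15Q, 17, 3 and 12 for 84Q and 10, 9 and 14 for 84Q+IGF-1, with log2 fold changes of -2.32 (adjusted p = 0.0167) and -2.47 (adjusted p = 0.00856). Of the 9 tested P450 genes of other families, 0 were called; Cyp46a1, the neuronal cholesterol hydroxylase, stood at 35.6 ± 4.65, 37.2 ± 3.99 and 36.2 ± 1.42 CPM, and Cyp26b1, which clears retinoic acid, at 35.2 ± 2.99, 40.3 ± 5.38 and 33.6 ± 3.58.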

How the data were processed

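RNA-seq libraries of mouse cerebellum were made with a strand-specific kit. Per the labels and methods, the authors demultiplexed with bcl2fastq 2.20, trimmed reads with Trimmomatic 0.36, aligned them to GRCm38.p6 (mm10) with HISAT2 2.2.0 and counted them with featureCounts. The deposited values are unnormalized read counts per gene for 37816 genes. The strand setting, annotation and featureCounts version are not given in the sources used here, so reads of genes with overlapping or antisense partners may be shared. Exons of another gene on the other strand overlap 10.7% of Cyp4x1, 10.5% of Cyp2u1 and 9.76% of Cyp4f18. On the same strand they overlap 8.22% of Cyp4v3 and 4.64% of the called Cyp2c29.

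Gene types, positions and exon lengths came from GENCODE vM21, in which 37681 genes were matched by identifier, and TPM was computed from them. Tests used edgeR 4.0.16 in R 4.3.3: TMM scaling, filterByExpr, 1 quasi-likelihood fit to all 9 libraries, two-sided tests and Benjamini-Hochberg adjustment. CPM used TMM-scaled totals. DESeq2 1.42.0 was an alternative. Others were no filter, DESeq2 size factors, a replicate block, a covariate for Xist, the 2 compared groups alone, an adjusted p under 0.05, no fold threshold and each library left out. Standard errors were derived from the F statistic. Against a group at 0 counts a bound was set with a floor of 3 counts over the group; with 1 to 3 counts the pooled ratio has a 95% exact interval. On simulated counts of 84Q against 15Q over 19353 genes, 92% of genes changed 2-fold and 99% of those changed 4-fold were called, with 9 of 18834 unchanged genes. The changed genes were drawn from those with a mean above 1 CPM. Recovery at lower levels, where most of the called members lie, was therefore not simulated.

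Members and lists were chosen with earlier results of these data known. Every tested member is named; values per library are given for tested brain-list members, called members and the 3 highest of each family. Untested members are named from 10 counts in any library, and other lists by at most 4 called genes or, with none called, the 2 with the highest mean CPM. Promoter windows are from RefSeq (GRCm38.p6). A gene of the list of receptors and transcription factors is not reported here.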

Additional observations from a re-analysis of the deposited data

How the results depend on the processing

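The 10 members lower in both comparisons were called in all 15 alternative fits, with an adjusted p of at most 0.0947 in 84Q and 0.0797 in 84Q+IGF-1, both for Cyp3a25 (edgeR or DESeq2). Of these 10, 9 passed the filter only through 15Q, so their calls across fits are not read as support. Without the filter on low counts, members called lower rose to 16 in 84Q against 15Q, 19 in 84Q+IGF-1 against 15Q and 1 in 84Q+IGF-1 against 84Q. With 1 library left out, the first 2 counts ranged from 10 to 11 and from 10 to 12, beside 170 to 490 and 205 to 584 of all tested genes, against 368 and 399 with all libraries. The lowest were without 15Q replicate 3 (170 and 205) and replicate 2 (176 and 231). Between the 84Q groups 7 genes were lower and 2 higher without 84Q replicate 2, and 1 was higher without 84Q+IGF-1 replicate 3. Over all genes, 890 and 1193 were lower than in 15Q without the filter, and 154 were lower and 14 higher in 84Q+IGF-1 against 84Q, where the filtered fit called 0. Leaving Cyp4f14, Cyp3a13 and Cyp2s1 out of the summed intestine and liver level, chosen after seeing the data, moved it to 19.2, 1.18 and 1.21 CPM.

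The replicate numbers did not pair the libraries, with correlations of same-numbered deviations between -0.31 and 0.079. With the replicate block 10 members were lower in each comparison with 15Q, beside 225 and 247 of 19353 genes, and Cyp2j6 in 84Q had a log2 fold change of -0.00063. All other changes of sign also concerned members that were not called. With Xist as a covariate Cyp2u1 stood at -0.028 and -0.027, Cyp4f16 at -0.066 in 84Q and Cyp4x1 at -0.030 in 84Q+IGF-1. Cyp2d22 in 84Q+IGF-1 was 0.0079 with DESeq2, 0.0021 with DESeq2 size factors and 0.0034 with the 2 groups alone. With 1 library left out, log2 fold changes in 84Q ran from -0.015 to 0.32 for Cyp2j12, -0.080 to 0.11 for Cyp2j6, -0.015 to 0.20 for Cyp2s1, -0.070 to 0.099 for Cyp2u1, -0.21 to 0.017 for Cyp4f15, -0.046 to 0.12 for Cyp4f16, -0.061 to 0.0050 for Cyp4v3 and -0.11 to 0.097 for Cyp4x1. In 84Q+IGF-1 they ran from -0.059 to 0.052 for Cyp2d22, -0.069 to 0.099 for Cyp2u1, -0.097 to 0.010 for Cyp4f14, -0.088 to 0.14 for Cyp4f15 and -0.049 to 0.16 for Cyp4x1. The cause of these changes was not tested. At these depths a difference among members at or under 3 counts was not detectable.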
